A study of Arabidopsis thaliana with 12 samples.

Results

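A set of 187 probe sets on the Arabidopsis thaliana ATH1 array was lower in lug-3 than in wild-type rosette leaves and higher in lug-3 than in wild-type flowers. Members were chosen by a rule on the signals themselves, out of 22746 probe sets that are no array controls. With x as log2(signal + 8), the rule asked that all 3 lug-3 leaf arrays lie below all 3 wild-type leaf arrays with a mean difference of at most -0.5. It also asked that all 3 lug-3 flower arrays lie above all 3 wild-type flower arrays with a mean difference of at least 0.5. Because the rule uses every array, the differences between genotypes and between tissues of the members are given below as a description, with no test.

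The 4 groups were wild-type leaves, lug-3 leaves, wild-type flowers and lug-3 flowers, with 3 samples each and 1 single-colour array per sample. All plants were of the Landsberg erecta background (Ler-0), wild type or carrying the lug-3 allele, and grew at 20 °C in constant conditions. Leaves were mature rosette leaves at growth stage 3.90 and flowers were taken at growth stage 6.90, so tissue and stage cannot be told apart. Each sample was a pool of 20 plants. Nothing in the labels tells if the pools of 1 group were grown or extracted apart, so a p-value here reflects the spread among these arrays, part or all of which may be technical.

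The lug-3 allele alters LEUNIG (LUG), which codes for a corepressor of the Groucho/Tup1 type that does not bind DNA itself. It is brought to its target genes by transcription factors through the adaptor SEUSS (SEU), and is known for keeping the floral organ identity gene AGAMOUS silent in the outer whorls of the flower. LUG also acts in leaves, where it takes part in blade growth and polarity. By its title the study sought target genes of LUG, and comparing the genotypes within leaves and within flowers addresses which transcripts depend on LUG in each tissue.

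The opposite pattern, higher in lug-3 leaves and lower in lug-3 flowers, was met by 178 probe sets. Another 105 met the matching rule for higher in both tissues and 159 for lower in both. The 187 members were 0.822% of all probe sets, against 0.783%, 0.462% and 0.699% for the other directions. The leaf condition alone was met by 1741 probe sets, 7.65% of all, and the flower condition alone by 1372, 6.03% of all. Members made up 10.7% of the first list and 13.6% of the second. The reverse conditions, higher in leaves and lower in flowers, were met by 8.08% and 7.58% of all probe sets.

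**Figure D1:**
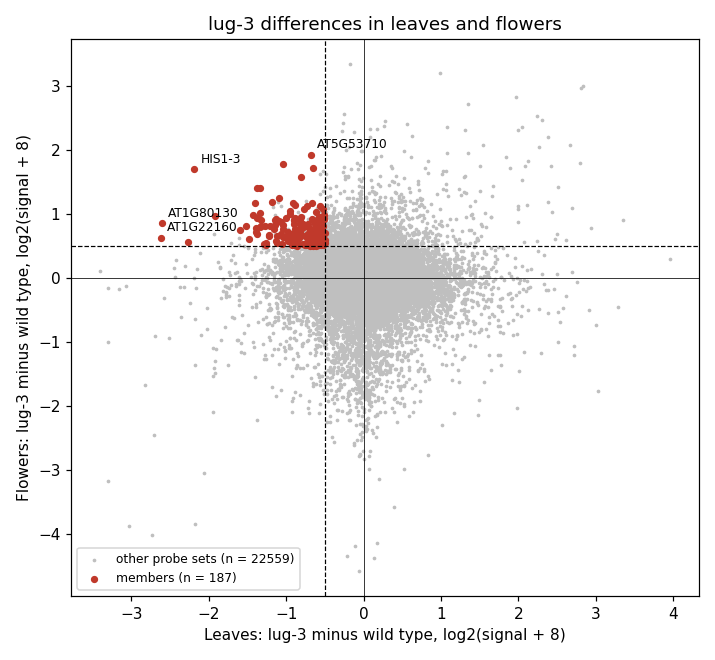
Mean difference between lug-3 and wild type in leaves (horizontal axis) and flowers (vertical axis), both in log2(signal + 8), for every probe set that is no control. The 187 members (red) fill the upper left corner beyond the dashed lines at -0.5 and 0.5, except where arrays of the groups overlapped, and 83 of them have a difference within 0.1 of a line.

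On the array scale most members were of middling signal. Their mean over the 12 arrays had a median of 127, against 49.8 for all probe sets, and ran from 5.73 to 1890, with 79 members below 100 and 5 above 1000. The leaf difference ranged in size from 0.50 to 2.62 log2 units with a median of 0.74, and the flower difference from 0.51 to 1.93 with a median of 0.69. The leaf difference was the larger for 107 members and the flower difference for 80. A leaf difference of at least 1 log2 unit was reached by 46 members, a flower difference of that size by 21, and both by 8. For 83 members the smaller of the differences lay within 0.1 of the limit of 0.5.

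Just inside the limit lay DIM1B, AT4G30600 and AT3G50380, whose smaller differences were 0.51, 0.51 and -0.50. Just outside lay AT1G21680, which missed the leaf limit with -0.497 beside a flower difference of 0.96. AT2G47890 missed the flower limit with 0.496 after a leaf difference of -1.55, and AT4G24050 missed it with 0.494 after -1.02. In all, 759 further probe sets met the conditions on separated arrays in both tissues and fell short in size.

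Of the 187 members, 94 carried a single annotated gene, 3 carried several and 90 are unnamed here. The 94 genes were all different and all matched the RefSeq gene table, which gives 21 of them a symbol and 73 a locus tag alone. Only the 21 are described by function, and a locus tag is given no role. A filter on low signal, used for the tests of other genes below, was passed by 181 members. UGT73C1 was the described gene among the 6 that did not pass.

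The member with the largest opposite movement was HIS1-3 (AT2G18050), a linker histone H1 variant known to be induced by drought and abscisic acid. HIS1-3 gave signals of 64.9, 126 and 272 in wild-type leaves against 28.03, 18.6 and 22.1 in lug-3 leaves. The same probe set read 51.5, 43.4 and 20.3 in wild-type flowers and 119, 164 and 127 in lug-3 flowers. Wild-type leaves and lug-3 flowers were the high groups, at 154 ± 106 and 137 ± 24.2 (SD, n = 3), and the wild-type leaf arrays were spread widely. The difference was -2.19 log2 units in leaves and 1.70 in flowers, and HIS1-3 was higher in leaves than flowers in the wild type but the reverse in lug-3. Without the 3 arrays of highest GAPDH ratio, described below, the leaf difference of HIS1-3 was -1.25. That setting leaves wild-type leaves 1 as the only wild-type leaf array, so each leaf value given for it rests on 1 sample of the wild type.

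XERICO (AT2G04240), a small RING-H2 zinc finger protein known to raise abscisic acid levels, moved by about the same size in each tissue. XERICO signals were 181, 337 and 314 in wild-type leaves against 102, 141 and 171 in lug-3 leaves. In flowers they were 181, 189 and 191 for the wild type and 377, 402 and 370 for lug-3. The flower groups were tight and far apart, while in leaves the lowest wild-type array (181) stood just above the highest lug-3 array (171). The differences were -0.95 and 1.00 log2 units, and the leaf value was -0.62 when the GAPDH ratio entered the fit as a covariate. It was -0.40 once the 3 arrays with the highest ratio were left out.

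SIS (AT5G02020), named for a serine-rich protein induced by salt, and TIL (AT5G58070), the temperature-induced lipocalin that is needed for heat and freezing tolerance, are the other stress-related symbols. SIS read 240, 153 and 177 in wild-type leaves against 107, 34.2 and 57.4 in lug-3 leaves, 73.8, 68.1 and 60.2 in wild-type flowers and 119, 166 and 95.3 in lug-3 flowers. Its differences were -1.51 and 0.81 log2 units, and lug-3 flowers stayed below wild-type leaves on average. TIL was a strong signal with a small change: 1306, 1073 and 1255 in wild-type leaves against 811, 837 and 891 in lug-3 leaves, 489, 456 and 432 in wild-type flowers, and 747, 801 and 509 in lug-3 flowers. One lug-3 flower array of TIL (509) stood close to the wild-type flowers (489 at most), and the differences were -0.51 and 0.55. The list of abscisic acid, cold and drought genes, which is built on other symbols, held no member among its 16 probe sets.

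Sugar and starch metabolism was represented by ATSPS4F (AT4G10120), a sucrose phosphate synthase, and APL4 (AT2G21590), a large subunit of ADP-glucose pyrophosphorylase, which makes the substrate of starch synthesis. ATSPS4F had signals of 705, 815 and 1038 in wild-type leaves against 516, 263 and 264 in lug-3 leaves. In flowers it had 77.6, 69.2 and 75.4 in the wild type and 140, 140 and 155 in lug-3. The signal was higher in leaves than in flowers in both genotypes, and the differences were -1.33 log2 units in leaves and 0.90 in flowers. For a member that stays higher in leaves, the rule itself makes the gap narrower in lug-3.

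APL4 ran at a lower level and was higher in flowers. Its signals were 32.8, 43.1 and 43.9 in wild-type leaves against 20.5, 12.3 and 19.3 in lug-3 leaves, 108, 105 and 67.5 in wild-type flowers and 128.3, 115 and 165 in lug-3 flowers. The differences were -0.93 and 0.52, and the flower value was 0.32 without wild-type flowers 3, the lowest array of its group. In the list of senescence, sugar starvation and darkness genes these were the members among 15 probe sets, against 0.822% of all probe sets. Of the 13 others, all tested with limma, 4 were lower and 2 higher in lug-3 leaves, and none was lower and 1 higher in lug-3 flowers. Over all 17877 probe sets tested, 11.0% were lower and 11.3% higher in lug-3 leaves, and 6.75% were lower and 5.27% higher in lug-3 flowers. Single arrays weighed on these shares: the 3993 leaf calls in either direction were 2581 without lug-3 leaves 3, and the 2150 flower calls were 1151 without wild-type flowers 1. The 13 had a median difference of -0.31 in leaves and 0.12 in flowers, against -0.01 and 0.05 over all probe sets tested.

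Among the 13, APL3, another large subunit of the same enzyme, was 107 ± 16.5 in wild-type leaves against 57.3 ± 8.79 in lug-3 leaves (SD, n = 3). Its leaf difference was -0.81 log2 units (SE 0.19, limma adjusted p = 0.00983), while in flowers, at 76.2 ± 10.4 and 84.7 ± 23.3, it was 0.12 (adjusted p = 0.758). The difference between the flower and leaf changes, the interaction, was 0.93 (SE 0.27, limma adjusted p = 0.0263), and it missed the threshold in 6 of the alternative fits, with an adjusted p of 0.156 with the GAPDH ratio as covariate. EXO, the growth-related EXORDIUM gene, had an interaction of the opposite sign: 53.9 ± 30.8 and 197 ± 112 in leaves, 314 ± 10.2 and 139 ± 58.4 in flowers (wild type first), with an interaction of -2.96 (SE 0.63, limma adjusted p = 0.00671, and 0.0754 with the covariate). Over all probe sets the interaction was called positive for 11.5% and negative for 11.5%.

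PIFI, CRR42 and MAP1B, described next, were each higher in leaves than in flowers in both genotypes. PIFI (AT3G15840), a chloroplast protein named for the rise in chlorophyll fluorescence after illumination, had signals of 2460, 2922 and 2888 in wild-type leaves against 2027, 1752 and 1894 in lug-3 leaves. It had 319, 307 and 415 in wild-type flowers and 578, 602 and 551 in lug-3 flowers. Every leaf array was above every flower array, and the differences were -0.54 and 0.73 log2 units. The tissues were thus closer in lug-3, which the rule fixes for such a member. With the GAPDH ratio as a covariate PIFI no longer met the rule.

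CRR42 (AT5G20935), of the chlororespiratory reduction group needed to assemble the chloroplast NAD(P)H dehydrogenase complex, followed the same order. CRR42 signals were 205, 279 and 313 against 154, 149 and 134 in leaves and 30.5, 30.5 and 43.8 against 66.5, 58.3 and 55.8 in flowers, wild type first. Its differences were -0.81 and 0.68, and the leaf value was -0.475 without the 3 arrays of highest GAPDH ratio. MAP1B (AT3G25740), a methionine aminopeptidase of organelles, read 97.2, 130 and 127.8 against 81.4, 69.7 and 84.0 in leaves and 21.9, 20.2 and 17.1 against 42.8, 33.2 and 40.7 in flowers, with differences of -0.54 and 0.76.

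None of the 52 probe sets of the photosynthesis list was a member, where members were 0.822% of all probe sets. Most of the 52 stand for genes of the chloroplast genome, such as psaA, psbA, petA and ndhA, and fewer for nuclear genes. In the limma fit 1 of the 52 was lower and 6 higher in lug-3 leaves and none lower and 3 higher in lug-3 flowers. Their median differences were 0.04 in leaves and 0.21 in flowers. Of 17 other probe sets of the chloroplast and plastid list, chosen on words in gene synonyms, none was lower and 6 were higher in lug-3 leaves, and none was lower and 1 higher in lug-3 flowers. Among all probe sets tested, 11.0% were lower and 11.3% higher in lug-3 leaves, and 6.75% and 5.27% in lug-3 flowers. MDH, malate dehydrogenase, is an example from the chloroplast and plastid list and from the redox list. It measured 240 ± 6.78 and 345 ± 2.55 in leaves and 416 ± 28.99 and 325 ± 27.0 in flowers, wild type first, with an interaction of -0.86 (SE 0.15, limma adjusted p = 0.00254). AT4G38100 of the same list had an interaction of -0.67 (SE 0.18, limma adjusted p = 0.0196).

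The brightest member of all was CCL (AT3G26740), a gene of light and circadian control whose transcript is known to be unstable. CCL gave 3167, 3631 and 3400 in wild-type leaves against 2107, 2195 and 2206 in lug-3 leaves. Wild-type flowers gave 698, 745 and 817, and lug-3 flowers 1315, 1348 and 1051. All groups were well separated, with group means of 3399 ± 232, 2169 ± 54.1, 753 ± 60.2 and 1238 ± 163 in that order, and differences of -0.64 and 0.71 log2 units. The 4 brightest named members also include PIFI and a pair with no symbol. These are AT2G46600, at 2632 ± 156 and 1615 ± 165 in leaves and 773 ± 67.6 and 1332 ± 12.6 in flowers, and AT5G61820, at 1131 ± 130 and 674 ± 129 in leaves and 618 ± 77.1 and 906 ± 55.2 in flowers. In AT5G61820 the tissue order was turned, since the lug-3 leaf mean lay below the lug-3 flower mean. No probe set of the 5 on the clock and flowering time list was a member. GI, the clock gene GIGANTEA of that list, was called in the members' directions, at -0.59 in leaves (limma adjusted p = 0.0415) and 0.64 in flowers (adjusted p = 0.0444), but its leaf arrays overlapped between the genotypes.

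**Figure D2:**
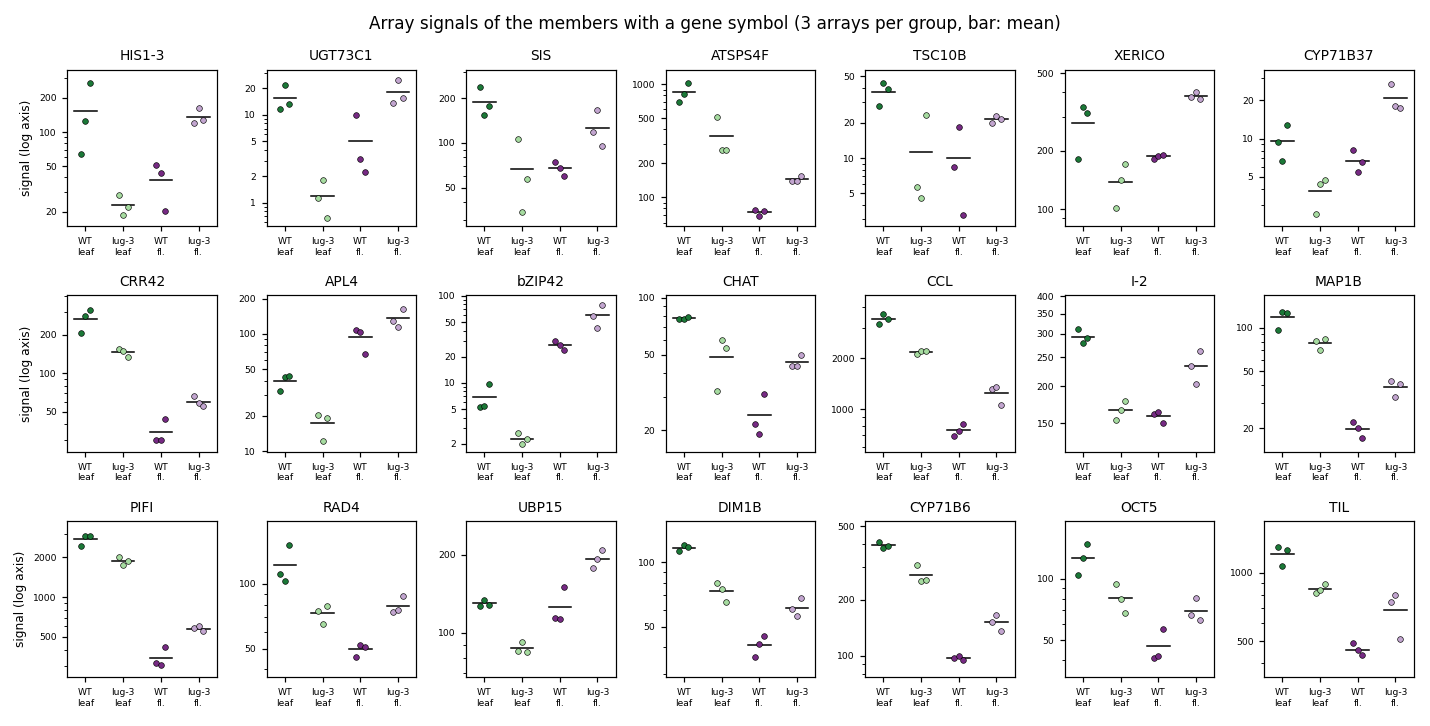
Array signals of the 21 members with a gene symbol, on log axes, in wild-type (WT) leaves, lug-3 leaves, wild-type flowers and lug-3 flowers (fl.), with 1 point per array and a bar at the mean of the 3 arrays. The vertical axes differ between genes. HIS1-3, XERICO and UGT73C1 end higher in lug-3 flowers than in lug-3 leaves, while PIFI, CCL and ATSPS4F stay higher in leaves in both genotypes.

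Secondary metabolism gave 4 symbols. UGT73C1 (AT2G36750), a UDP-glucosyltransferase able to glucosylate cytokinins, was a dim probe set throughout: 11.7, 21.9 and 13.4 in wild-type leaves against 1.14, 1.82 and 0.673 in lug-3 leaves, 9.89, 3.18 and 2.23 in wild-type flowers and 13.6, 25.2 and 15.7 in lug-3 flowers. Its differences of -1.34 and 1.02 log2 units depend on the pseudocount, being -2.90 and 1.81 with 1 in place of 8 and -0.52 and 0.43 with 32. CYP71B37 (AT3G26330), a cytochrome P450, was as dim in leaves, at 9.42, 6.68 and 12.8 against 2.56, 4.39 and 4.69, and read 8.15, 5.47 and 6.56 against 26.6, 17.9 and 17.3 in flowers. Its differences were -0.56 and 0.95, and with a pseudocount of 32 they were -0.21 and 0.44.

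CYP71B6 (AT2G24180), of the same P450 subfamily, was bright and tight. It read 412, 381 and 391 against 310, 253 and 255 in leaves and 97.1, 100 and 95.4 against 152, 167 and 136 in flowers, with differences of -0.53 and 0.59. CHAT (AT3G03480), the acetyltransferase that makes the green leaf volatile hexenyl acetate, read 77.4, 77.4 and 79.2 against 32.3, 59.6 and 54.4 in leaves and 21.7, 19.2 and 31.3 against 43.6, 43.7 and 50.2 in flowers. Its leaf difference of -0.64 was -0.41 without lug-3 leaves 1, and its flower difference was 0.76.

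The list of cytochrome P450 and glucosyltransferase genes held 3 of these members among 108 probe sets, where members were 0.822% of all probe sets. Of its 75 tested probe sets that were no members, 9 were lower and 15 higher in lug-3 leaves, 14 were lower and 6 higher in lug-3 flowers, and the medians were -0.08 in both tissues. For all probe sets tested the shares were 11.0% lower and 11.3% higher in leaves, and 6.75% and 5.27% in flowers. A further gene of the same subfamily, CYP71B34 (AT3G26300), was the one probe set of that list called lower in leaves and higher in flowers without being a member. It read 102, 130 and 174 against 89.7, 95.9 and 91.3 in leaves and 56.7, 63.7 and 54.3 against 90.1, 82.5 and 96.0 in flowers. Its leaf difference was -0.49 (limma adjusted p = 0.0481), its flower difference 0.56 (adjusted p = 0.0429) and the interaction 1.04 (adjusted p = 0.00754). CYP71B26 had no called leaf change, at 152 ± 57.1 and 121 ± 21.5 (-0.25, limma adjusted p = 0.493), and measured 33.9 ± 2.30 and 240 ± 12.1 in flowers, a rise of 2.57 (adjusted p = 4.83e-05), with an interaction of 2.82. UGT85A3 fell in flowers from 284 ± 44.5 to 75.6 ± 9.61 (limma adjusted p = 1.42e-05). In leaves it was 18.7 ± 0.897 and 18.3 ± 2.55, and its interaction was -1.77 (SE 0.20, limma adjusted p = 0.000268).

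Lipid and membrane functions were carried by TSC10B and OCT5. TSC10B (AT5G19200), a ketodihydrosphinganine reductase of sphingolipid synthesis, gave 27.97, 43.7 and 39.01 in wild-type leaves against 5.63, 4.57 and 23.5 in lug-3 leaves, 8.45, 18.5 and 3.27 in wild-type flowers and 20.0, 22.9 and 21.5 in lug-3 flowers. In each low group a single array stood well above the others, and the nearest arrays of the opposed groups were 23.5 and 27.97 in leaves and 18.5 and 20.0 in flowers. The differences were -1.34 and 0.79, the latter 0.50 without wild-type flowers 3. OCT5 (AT1G79410), an organic cation and carnitine transporter, read 104, 126 and 148 against 94.4, 79.4 and 68.2 in leaves and 41.2, 42.0 and 57.0 against 66.7, 80.3 and 62.9 in flowers, with differences of -0.59 and 0.52. OCT5 met the rule in 11 of the 19 alternative settings that keep the limit of 0.5. Its leaf difference was -0.35 without the 3 arrays of highest GAPDH ratio. Of 18 other probe sets on the transport list, 2 were lower and none higher in lug-3 leaves and 2 were lower and none higher in lug-3 flowers. Shares over all probe sets tested were 11.0% lower and 11.3% higher in leaves, and 6.75% and 5.27% in flowers. The tonoplast sugar transporters TMT2 and TMT3 of that list had interactions of opposite sign, 1.09 (SE 0.21, limma adjusted p = 0.00394) and -0.97 (SE 0.20, adjusted p = 0.00536).

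Of the list of transcription factor families, 1 probe set was a member. bZIP42 (AT3G30530), a basic leucine zipper factor, was near background in leaves, at 5.26, 5.48 and 9.77 against 2.62, 2.01 and 2.25, and read 30.7, 27.2 and 23.9 against 59.0, 43.0 and 78.6 in flowers. Its leaf difference of -0.51 therefore rests on low signals, and was -1.21 with a pseudocount of 1, -0.18 with 32 and -0.28 with the GAPDH covariate. Its flower difference was 0.92. The list held 83 probe sets in all, where members were 0.822% of all probe sets. Of 49 others tested there, 7 were lower and 3 higher in lug-3 leaves and 7 lower and 2 higher in lug-3 flowers. Among all probe sets tested, 11.0% were lower and 11.3% higher in leaves, and 6.75% and 5.27% in flowers. BZIP61, of the same family, showed the opposite pattern with 1.04 ± 0.404 and 28.5 ± 9.65 in leaves and 38.8 ± 7.09 and 3.71 ± 3.40 in flowers, and an interaction of -4.004 (SE 0.32, limma adjusted p = 4.32e-05). AGL104, a MADS-box factor known from pollen, also went that way, with an interaction of -1.55 (SE 0.25, limma adjusted p = 0.00176). It was dim, at 1.88 ± 0.847 and 11.5 ± 4.54 in leaves and 23.1 ± 2.65 and 12.6 ± 2.92 in flowers, wild type first. The interactions of BZIP61 and AGL104 therefore also rest in part on signals near background.

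bZIP42 was also the member among 22 probe sets of the list on zinc finger and DNA-binding words, against 0.822% of all probe sets. Of 17 others tested there, 3 were lower and none higher in lug-3 leaves, and 2 were lower and 1 higher in lug-3 flowers. The shares over all probe sets tested were 11.0% lower and 11.3% higher in leaves, and 6.75% and 5.27% in flowers. bZIP44 of that list had an interaction of 1.23 (SE 0.22, limma adjusted p = 0.003) and AT2G40620 of -0.87 (SE 0.20, adjusted p = 0.00981). The cell cycle, replication and chromatin list, which holds HIS1-3, had 22 other tested probe sets, of which 2 were lower and 4 higher in lug-3 leaves and 3 lower and none higher in lug-3 flowers. In the interaction 6 of the 22 were negative and none positive, against 11.5% in each direction over all probe sets tested. Examples are AUR2, an Aurora mitotic kinase, at -1.53 (SE 0.30, limma adjusted p = 0.00429), and PRL, the replication factor PROLIFERA, at -0.93 (SE 0.21, adjusted p = 0.0082, and 0.0508 with the GAPDH covariate). AUR2 was dim in leaves, at 7.90 ± 4.52 in the wild type and 21.2 ± 4.59 in lug-3. The rule makes HIS1-3 positive, so its sign opposite to the 6 negative probe sets was fixed by the selection.

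Protein and nucleic acid maintenance made up the remaining symbols. UBP15 (AT1G17110), a deubiquitinating enzyme known for its effect on organ size, read 127, 134 and 128.3 against 85.5, 91.9 and 84.1 in leaves and 114.4, 113.2 and 151 against 178, 193 and 209 in flowers. Wild-type leaves and flowers were close for UBP15 (130 ± 3.93 and 126 ± 21.3), and the lug-3 groups lay on either side, with differences of -0.54 and 0.60. I-2 (AT5G52200), an inhibitor of protein phosphatase 1, read 311, 278 and 290 against 154, 167 and 178 in leaves and 161, 164 and 150 against 233, 204 and 263 in flowers. Its lug-3 leaves and wild-type flowers were close, at 166 ± 12.2 and 159 ± 7.33, and the differences were -0.79 and 0.53.

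RAD4 (AT5G16630), a DNA repair protein, read 112, 103 and 152 against 74.98, 65.1 and 78.6 in leaves and 45.8, 52.1 and 50.9 against 74.1, 75.5 and 87.5 in flowers, with differences of -0.67 and 0.59. DIM1B (AT5G66360), an adenosine dimethyltransferase of ribosomal RNA, read 112.8, 120 and 118 against 80.2, 75.3 and 65.4 in leaves and 36.2, 41.5 and 44.996 against 60.3, 55.8 and 68.0 in flowers, with differences of -0.62 and 0.51. MAP1B and UBP15 were the members among 88 probe sets of the protein turnover list, against a share of 0.822% over all probe sets. Of 77 others tested there, 14 were lower and 8 higher in lug-3 leaves and 6 were lower and 2 higher in lug-3 flowers. For all probe sets tested the shares were 11.0% lower and 11.3% higher in leaves, and 6.75% and 5.27% in flowers. SBT4.13, a subtilisin-type protease, was at 824 ± 43.5 in wild-type and 241 ± 15.4 in lug-3 flowers and near background in leaves (interaction -1.86, SE 0.24, limma adjusted p = 0.000632). The carboxypeptidase-like scpl25 had an interaction of -1.11 (SE 0.18, adjusted p = 0.00161).

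The redox list held CYP71B6 as its member among 94 probe sets, against a share of 0.822% over all probe sets. Of 80 others tested there, 10 were lower and 8 higher in lug-3 leaves and 8 were lower and 5 higher in lug-3 flowers. Shares over all probe sets tested were 11.0% lower and 11.3% higher in leaves, and 6.75% and 5.27% in flowers. ALDH6B2, a methylmalonate semialdehyde dehydrogenase, fell in leaves and had no called flower change, at 466 ± 41.1 and 233.9 ± 20.5 in leaves (-0.97, limma adjusted p = 0.000245) and 505 ± 25.3 and 540 ± 26.3 in flowers (0.09, adjusted p = 0.66). Its interaction was 1.06 (SE 0.16, adjusted p = 0.00122). Of the 29 gene lists examined, 27 matched a probe set and 9 held at least 1 member, and 11 of the 94 named members stood in a list. The lists with no member included cell wall genes, with 84 probe sets, calcium and touch signalling with 32, salicylic acid and defence with 23 (where WRKY47 was called at -0.56 in leaves and 0.43 in flowers, under the limit), auxin with 18 and jasmonate with 9. Members were 0.822% of all probe sets, so a list of such a size can hold none at that share. Whether any list held more members than that share was not tested. The 93 members with several or no annotated genes could enter no list.

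Several of the largest movements belonged to genes known here by locus tag alone. AT1G22160 was 233.6, 238 and 307 in wild-type leaves against 51.4, 27.7 and 29.8 in lug-3 leaves, a difference of -2.62 log2 units. In flowers AT1G22160 was 363, 402 and 351 in the wild type and 590, 553 and 599 in lug-3 (0.63), so that lug-3 widened a flower excess that was already there. AT1G80130 was 1109, 542 and 1063 against 119, 151 and 137 in leaves (-2.61) and 138, 146 and 98.3 against 180, 202 and 349 in flowers (0.85). The lug-3 leaf level of AT1G80130 was thereby close to the wild-type flower level, at 136 ± 16.2 and 127.5 ± 25.7.

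AT4G09760 was 598, 579 and 628 against 130, 105 and 121 in leaves (-2.27) and 65.8, 80.9 and 46.0 against 94.5, 97.7 and 98.2 in flowers (0.57, and 0.37 without wild-type flowers 3). AT1G67920 was 214, 223 and 220 against 77.9, 42.5 and 41.3 in leaves (-1.92) and 21.1, 25.1 and 37.5 against 78.9, 63.6 and 44.6 in flowers (0.97). In both of these the leaf change was the larger, and the groups were wide apart in leaves. The flower groups were close for AT4G09760, while those of AT1G67920 were at 27.9 ± 8.56 in the wild type and 62.4 ± 17.1 in lug-3.

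The largest flower difference of any member was that of AT5G53710, at 1.93. Its wild-type flowers read 37.9, 45.8 and 47.7 and its lug-3 flowers 174, 190 and 202, while in leaves it was 30.9, 45.1 and 22.3 against 21.7, 21.0 and 9.53. The leaf groups of AT5G53710 almost touched (22.3 and 21.7), and its leaf difference of -0.68 was -0.44 without lug-3 leaves 3. AT1G11210 followed in flowers with 51.05, 49.7 and 47.9 against 240, 276 and 102, a difference of 1.78. In leaves AT1G11210 read 556, 187 and 333 against 168, 161 and 136, and the difference of -1.04 was -0.67 without wild-type leaves 1 and -1.83 with the GAPDH covariate.

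AT5G50360 was 17.9, 27.97 and 31.8 against 5.36, 3.83 and 5.33 in leaves (-1.38) and 67.3, 49.7 and 37.9 against 156, 177 and 113.2 in flowers (1.40). AT5G52390 was 100, 60.8 and 78.1 against 28.3, 27.3 and 17.7 in leaves (-1.43) and 207, 199 and 147 against 285, 320 and 540 in flowers (0.98). Both were higher in flowers than in leaves in either genotype. AT4G23880 had the same size of change in each tissue, -1.19 and 1.19, at 336, 155 and 202 against 125, 80.4 and 76.8 in leaves and 31.7, 36.0 and 33.4 against 96.1, 102 and 66.3 in flowers. AT1G69480 was 108, 72.5 and 92.7 against 46.8, 36.9 and 31.8 in leaves (-1.09) and 37.6, 30.6 and 26.1 against 90.9, 86.2 and 79.3 in flowers (1.25), so that lug-3 flowers came close to wild-type leaves.

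The 8 members with at least 1 log2 unit in each tissue were HIS1-3, AT1G11210, AT5G50360, AT4G23880, UGT73C1, AT1G69480 and a pair of probe sets that are unnamed here. One of that pair, singled out after its values were seen, was the brightest of the 8, at 2650, 1384 and 1972 in wild-type leaves against 795, 790 and 693 in lug-3 leaves, 134, 122.96 and 163 in wild-type flowers and 481, 543 and 211 in lug-3 flowers. The 59 locus-tag members not described singly had leaf differences of -1.39 to -0.51 (median -0.71) and flower differences of 0.51 to 0.96 (median 0.64). The 93 members with several or no annotated genes ranged from -1.59 to -0.50 in leaves (median -0.76) and from 0.51 to 1.71 in flowers (median 0.70).

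A few members were at the bottom of the scale. AT5G32610, AT5G26070 and AT2G06130 were under a signal of 16.4, the limit of the filter, on all 6 leaf and all 6 flower arrays, and AT3G53040, AT2G17000, CYP71B37 and bZIP42 on all 6 leaf arrays. In all 9 members were that low throughout leaves and 4 throughout flowers, so for these the direction rests on signals near background.

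In wild-type plants most members were leaf-rich. The wild-type leaf mean was above the wild-type flower mean for 157 members, 84.0%, against 49.4% of all probe sets. All 3 wild-type leaf arrays were above all 3 wild-type flower arrays for 140, 74.9% against 25.6% of all probe sets, and below them for 17, 9.1% against 30.2%. In lug-3 the leaf mean was the higher for 60 members, 32.1% against 44.2%. All 3 lug-3 leaf arrays were the higher for 46, 24.6% against 20.7%, and all 3 lug-3 flower arrays for 102, 54.5% against 31.0%. The order of the tissues was turned from leaves to flowers in 97 members, 51.9% against 16.0%. The median difference of flowers minus leaves was -1.12 log2 units in the wild type and 0.46 in lug-3, against 0.01 and 0.07 over all probe sets. Choosing members that are high in wild-type leaves and low in wild-type flowers favours this pattern by itself, and it was not tested.

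**Figure D3:**
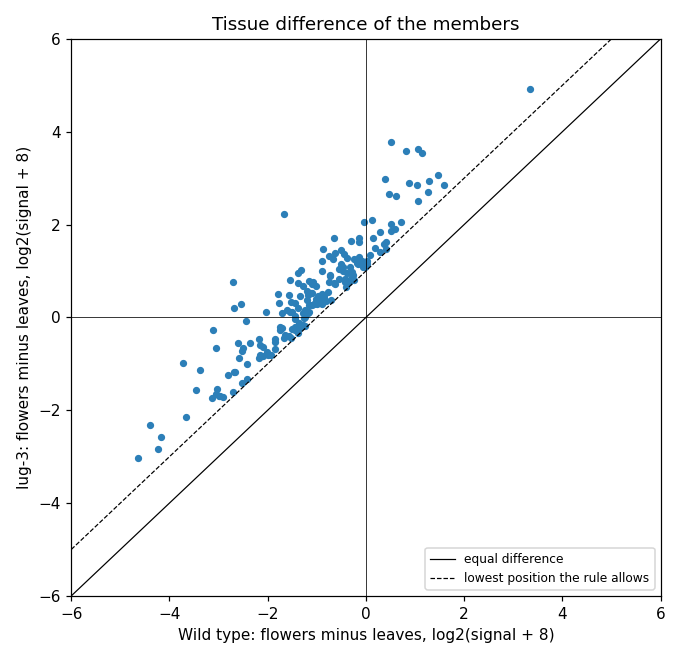
Difference between flowers and leaves in lug-3 (vertical axis) against the same difference in the wild type (horizontal axis) for the 187 members, in log2(signal + 8). The rule places every point above the dashed line, and the 97 points left of 0 on the horizontal and above 0 on the vertical axis are members that were higher in leaves in the wild type and higher in flowers in lug-3.

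The order of the 4 group means sorted the members into kinds. The rule itself puts wild-type leaves above lug-3 leaves and lug-3 flowers above wild-type flowers. Only orders that keep both were therefore possible, and the split among them is a description that was not tested. In 60 members, 32.1%, leaves stayed above flowers in both genotypes, and these include ATSPS4F, PIFI, CCL, CRR42, MAP1B, CHAT, CYP71B6, DIM1B, OCT5 and TIL. In 50, lug-3 flowers rose above lug-3 leaves but stayed below wild-type leaves, with wild-type flowers lowest, as in AT1G80130, AT1G11210, TSC10B, I-2 and RAD4. In 37, lug-3 flowers were the highest group and lug-3 leaves the lowest, with wild-type leaves above wild-type flowers, as in HIS1-3, XERICO, UGT73C1, CYP71B37 and UBP15. In 30, flowers were above leaves in both genotypes, as in APL4, bZIP42, AT1G22160, AT5G50360, AT5G52390 and AT5G53710. Another 9, among them SIS, had wild-type leaves highest and lug-3 leaves lowest, and 1 unnamed member had lug-3 flowers highest and wild-type flowers lowest.

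Some arrays were often at an extreme of their group. The median signal over the members was 162, 162 and 177 on the wild-type leaf arrays and 94.2, 80.4 and 85.4 on the lug-3 leaf arrays. It was 66.6, 71.6 and 68.9 on the wild-type flower arrays and 117, 133 and 123.1 on the lug-3 flower arrays. Lug-3 leaves 1 was the highest lug-3 leaf array in 108 members, 57.8%, against 42.4% of all probe sets tested. Wild-type leaves 1 was the lowest wild-type leaf array in 92 members, 49.2% against 40.6%. Lug-3 flowers 2 was the highest lug-3 flower array in 81 members, 43.3% against 29.03%.

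A measure of RNA quality moved with the leaf comparison. For GAPDH, the control signal at the 3' end divided by that at the 5' end was 1.71 to 3.44 on wild-type leaf arrays and 1.47 to 1.68 on lug-3 leaf arrays, and 1.63 to 2.07 and 1.65 to 3.10 on the flower arrays. With the log2 of this ratio as a covariate, the mean differences were adjusted, while the separation of arrays was still judged on unadjusted signals. In that form 169 probe sets met the rule, of which 136 were among the 187 members. The 51 lost include APL4, bZIP42, CHAT, MAP1B, PIFI, RAD4, UBP15, DIM1B and OCT5. Without the 3 arrays of highest ratio, which were arrays 2 and 3 of the wild-type leaves and array 3 of the lug-3 flowers, 482 probe sets met the rule, 127 of them members, and groups of fewer arrays are separated more easily. Over 19 alternative settings that keep the limit of 0.5, 57 of the 187 members met the rule each time. These include 13 of the 35 described, and HIS1-3, SIS, ATSPS4F and CCL among those with a symbol.

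**Figure D4:**
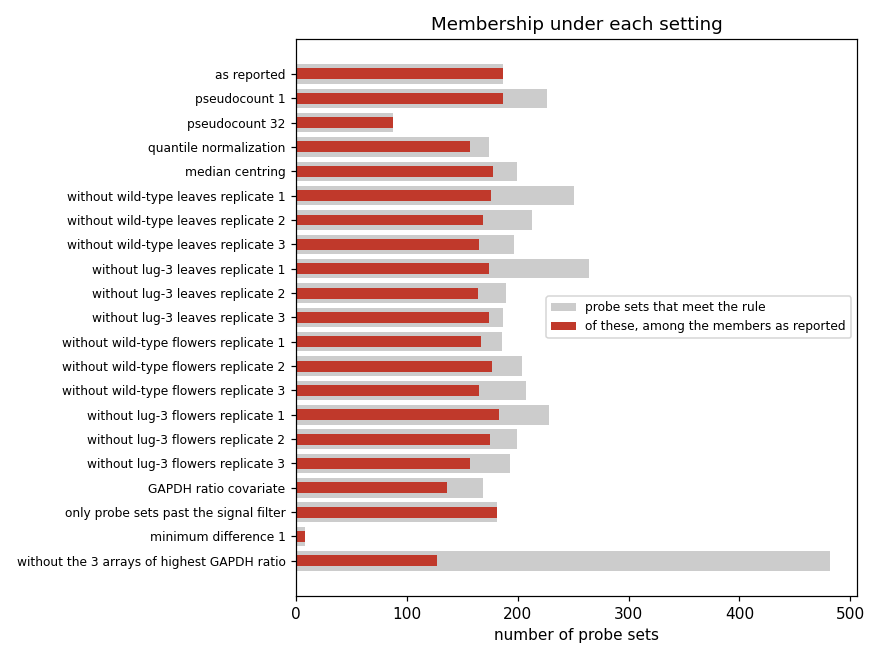
Number of probe sets that met the rule under each setting (grey bars) and how many of them were among the 187 members (red bars). The count lay between 169 and 264 except with a pseudocount of 32 (87), a minimum difference of 1 (8) and without the 3 arrays of highest GAPDH ratio (482).

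Cell type markers followed the labelled tissues, and the sums for reproductive cells differed between the genotypes in flowers without overlap. Only some of the markers planned for these cells had a named probe set, and the petal and stamen markers AP3 and PI had none. Most of the 52 photosynthesis probe sets stand for chloroplast genes. Their summed signal was 83544 to 96376 in wild-type leaves, 89996 to 94220 in lug-3 leaves, 35397 to 46662 in wild-type flowers and 44299 to 49420 in lug-3 flowers. The 4 pollen markers summed to 483 to 642 in wild-type flowers and 131 to 215 in lug-3 flowers, against 65.5 to 80.6 and 39.3 to 49.5 in leaves. The pollen sum thus separated the genotypes in leaves too, at a lower level. The 3 tapetum markers summed to 1323 to 2042 in wild-type and 470 to 636 in lug-3 flowers, and to 26.3 at most in leaves. The 3 carpel, ovule and seed coat markers, SPT, INO and BAN, summed to 357 to 489 and 119 to 134 in flowers and to 64.1 at most in leaves. No marker probe set was a member, and the part of these shifts in the members' flower differences was not tested. In whole organs, fewer cells of a type and less RNA per cell cannot be told apart.

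LUG itself and its relative LUH had no named probe set, so the altered transcript was not analysed here. SEU, the adaptor of the complex, was no member. It read 154, 149 and 155 against 122.7, 119 and 117 in leaves, a difference of -0.33 (limma adjusted p = 0.027), and 130, 135 and 136 against 145, 141 and 133 in flowers, a difference of 0.06 (adjusted p = 0.754). Its interaction was 0.39 (adjusted p = 0.0553). Of the 5 probe sets on the list of LUG and its partners, none was a member. The YABBY factors YAB5 and INO of that list were lower in lug-3 flowers, at -0.69 log2 units (limma adjusted p = 0.0248) and -0.71 (adjusted p = 0.0187). YAB5 had a called interaction of -0.90 (adjusted p = 0.0222).

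Named members were found on all 5 chromosomes, as 0.811% of the named probe sets of chromosome 1, 0.818% of 2, 0.546% of 3, 0.51% of 4 and 0.765% of 5. By gene order in the RefSeq table, 6 pairs of members had fewer than 20 genes between them. The closest were AT5G26070 and AT5G26110 with 3 genes between, TIL and AT5G58120 with 4, and AT3G15780 and PIFI with 5. AT1G80130 and AT1G80180 had 8 between, OCT5 and AT1G79510 had 11, and DIM1B and AT5G66490 had 13.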

How the data were processed

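Transcript levels in 12 samples were read from 1 deposited table of linear probe set intensity, the signal of the text. The submitters' processing notes list the tools MAS5 and GCOS, versions not given in the sources used here. Intensity values were scaled by the authors: the mean after trimming 2% at each end was 100 on every array, and the median 38.3 to 41.0 in leaves and 48.8 to 52.6 in flowers. No further scaling was applied.

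Of 22810 probe sets, 64 controls were left out. Single genes were given to 13513 by GEO's platform annotation, 503 had several and 8730 are unnamed here. Symbols came from the RefSeq gene table. Its assembly was not matched to the array, so no coordinates are given, and promoters were not analysed here.

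Members followed the stated rule on log2(signal + 8), a scale that understates changes at low signal. Members and gene lists were chosen with earlier results of these data known. For other genes, limma 3.58.1 in R 4.3.3 fitted 4 group means to all 12 arrays (lmFit and eBayes) over 17877 probe sets whose signal passed 16.4, the 30th percentile of all signals, on 3 or more arrays. Benjamini-Hochberg adjusted p-values below 0.05 were called. Means ± SD are of 3 arrays. The number of arrays limits the precision.

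Described members are the 12 with the largest opposite movement, up to 4 of each list, the 4 brightest and the 3 nearest the limit. All others with a symbol, and CYP71B34, GI, WRKY47, YAB5 and INO, were added after values were seen. For each list with a member, up to 2 non-members with the smallest p in the interaction are named, together with SEU. Lists match gene symbols, or words in symbols and synonyms.

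Alternatives were pseudocounts of 1 and 32, quantile normalization, median centring, no filter, each array left out, the GAPDH ratio as a covariate, a replicate block, a minimum difference of 1 and fits within a tissue. Leaving out the 3 arrays of highest ratio was chosen after seeing the data.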

Additional observations from a re-analysis of the deposited data

Results flagged for a closer look

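In each of the 187 members all lug-3 arrays lay below the wild type in leaves and above it in flowers, which is what the selection rule asked. The difference between tissues chose the set and was not tested.

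In the 9 lists that hold a member, 347 probe sets that are no members were tested, and the lug-3 change in flowers differed from that in leaves for 98 by limma's interaction term, 47 positive and 51 negative. The 17 named, up to 2 of smallest p in each list, do not stand for that split. Over all probe sets tested the interaction was also called about as often in each direction, at the shares given in the Results. Whether the lists exceed those shares was not tested, so the count of 98 does not set these lists apart. The interaction was positive, as in the members, for CYP71B26 (2.82), bZIP44 (1.23), TMT2 (1.09), ALDH6B2 (1.065) and APL3 (0.93). It was negative for BZIP61 (-4.004), EXO (-2.96), SBT4.13 (-1.86), UGT85A3 (-1.77), AGL104 (-1.55), AUR2 (-1.53), scpl25 (-1.11), TMT3 (-0.97), PRL (-0.93), AT2G40620 (-0.87), MDH (-0.86) and AT4G38100 (-0.67).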

How the results depend on the processing

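The count of 187 members became 87 with a pseudocount of 32, 8 with a minimum difference of 1 and 482 without the 3 arrays of highest GAPDH ratio, where smaller groups are more easily separated. It lay between 186 and 264 when single arrays were left out, and was 226, 174, 199 and 169 with a pseudocount of 1, quantile normalization, median centring and the GAPDH covariate. Of the 35 described members, 19 no longer met the rule with a pseudocount of 32 and 11 with the GAPDH covariate. The leaf calls (3993 by limma) became 1950 with leaf arrays alone, 2816 with the GAPDH covariate and 4306 with a pseudocount of 32. With single arrays left out they ran from 2581 without lug-3 leaves 3, and 2600 without lug-3 leaves 2, to 4014. The flower calls (2150) ran from 1151 to 2608 with single arrays left out, and were 2834 with flower arrays alone, 2280 with the covariate and 2620 with a pseudocount of 32. The lowest counts came when array 1 or 2 of the wild-type flowers (1151 and 1199) or array 2 or 1 of the lug-3 flowers (1231 and 1312) was left out. The interaction calls (4110) ran from 3042 to 4473 with single arrays left out, and were 2987 with the covariate and 4718 with a pseudocount of 32. The causes of these shifts beyond fewer arrays were not tested. With the replicate number as a block, 3888 leaf, 2006 flower and 4038 interaction calls were made. The labels do not tell if the numbers pair the samples. Across 18 pairs of arrays with the same number, the correlation of deviations ran from -0.11 to 0.18, and 3 were above 0.1. Deviations from means of 3 arrays cannot show whether same-numbered samples were grown or extracted together. Of the list genes named, APL3 missed the threshold in 6 fits, and EXO and PRL with the GAPDH covariate. Signals near background limit the dim members.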
